A study of Oncorhynchus mykiss with 16 samples.

Results

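The 200 array probes described here detect trout transcripts whose signal was highest at day 8 of adipocyte culture, in each of 4 cultures. They were chosen from 40591 candidate probes, which had a value on every array, lay well above background on all 4 arrays of day 8 and did not belong to a set of 224 separately designed probes. For each culture a score was taken as the day 8 value minus the highest of the values at days 3, 15 and 21, on the deposited log2 scale. The 200 probes with the highest minimum score over the 4 cultures make up 0.493% of the candidates. Because the choice used these values, the difference between day 8 and the other days is described below without a test.

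The arrays come from a study of how rainbow trout (Oncorhynchus mykiss) fat cell precursors proliferate and mature. Each culture, numbered 4, 8, 9 or 10 in the labels, started from a separate pool of visceral fat from 6 to 7 fish, so a culture stands for a pool and not for a fish. RNA from 1 flask per culture and day was labelled with Cy3 and hybridised to 1 array, which gave 16 arrays and n = 4 at each day. No strain, mutation or separate untreated group is given, and all arrays carry the white adipose tissue label. At day 3 the attached cells, which the authors call mesenchymal stem cells, were in growth medium with fetal bovine serum. At day 8, where the methods place confluence, the cells, called proliferated, are taken to have been in the same medium. The labels do not say whether the day 8 RNA was taken before the medium was changed. After confluence the medium also held insulin, the phosphodiesterase inhibitor IBMX, the glucocorticoid dexamethasone and a lipid mixture, and cells in it were sampled as committed preadipocytes at day 15 and as mature adipocytes at day 21. Time in culture and the change of medium cannot be told apart after day 8, nor can age of the culture and confluence before it.

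Fat cell precursors in culture divide until they touch, leave the cell cycle and, under hormones, switch on transcription factors of the C/EBP family and PPARγ, which turn on genes of lipid storage. In mammals, some signals of the Wnt family hold precursors in the undifferentiated state. A transcript that is high only around confluence stands between these phases, and in a bulk sample more cells that hold it cannot be told apart from more RNA per cell.

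None of the 200 probes carries a readable gene name. Their identifiers are those of assembled contigs. Of the probes, 96 (48%, against 55.5% of candidates) bear a TC contig number and 75 (37.5%, against 30.3%) the name of a sequence read. The other 29 (14.5%, against 14.2%) bear a name in the format of a GenBank accession. No member was matched to a gene in the RefSeq gene table used here. That is no trait of the members, since only 5 of all 60195 non-control probes were matched. The lists of Wnt, cell cycle, matrix, adipogenic and cell type marker genes could therefore not be counted among the members. Neither genome positions nor roles can be given. No member shares its identifier with another probe, and 3 members were spotted at 2 places. The labelled fat cell fate could not be checked on the arrays through PPARγ, since the probe named PPARg was well above background on 0 of 16 arrays.

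Seen as a group, the members had a single maximum, as the rule requires. On the arrays of days 3, 8, 15 and 21 the median of their 200 deposited log2 values averaged 7.27 ± 0.08, 8.79 ± 0.15, 7.48 ± 0.11 and 7.26 ± 0.04 (SD, n = 4 cultures). With each probe set to its own mean over the 16 arrays, the array medians averaged -0.42 ± 0.09, 1.02 ± 0.12, -0.11 ± 0.12 and -0.43 ± 0.09 (SD, n = 4) at the same days. The day 8 level was fixed by the choice. Of the other days, day 15 had the highest of these means.

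**Figure D1:**
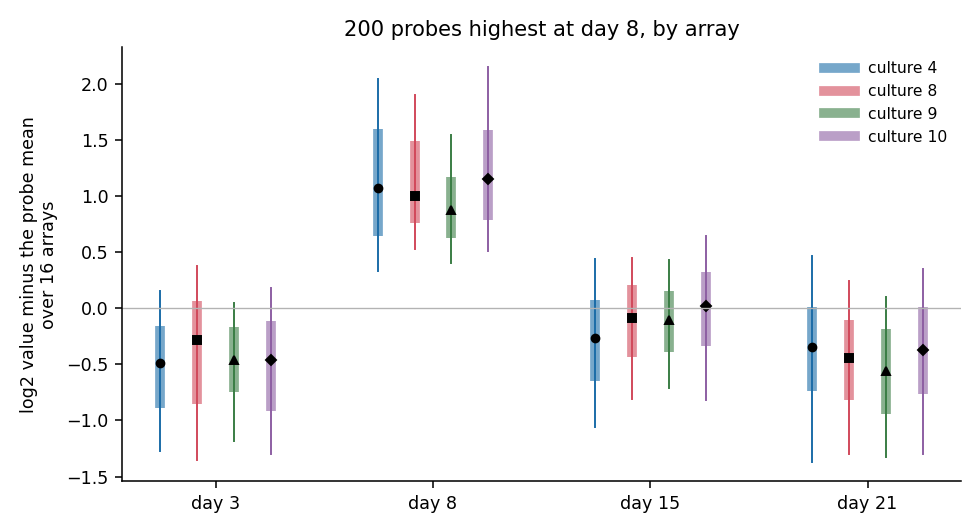
Deposited log2 value of the 200 probes minus each probe's mean over the 16 arrays, by day and culture. Points are medians over the 200 probes, thick bars span the middle 50% of probes and thin lines the 10th to 90th percentiles. The 4 day 8 arrays stand apart because day 8 chose the probes, and the median of the day 8 arrays averaged 1.02 above the probe means.

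Scores varied between probes and, within a probe, between cultures, from 1.36 to 3.85 in CU072096.s.om.10 and from 1.63 to 3.30 in FP323437.s.om.10. The median score was 1.00 in culture 4, 0.95 in culture 8, 0.82 in culture 9 and 0.94 in culture 10, which equals ratios of 2.00, 1.93, 1.77 and 1.92. Day 8 was at least 2-fold above every other day for 99, 90, 59 and 93 of the 200 probes in these cultures. Over all candidates the median scores were -0.38, -0.41, -0.34 and -0.49. Culture 9 gave the lowest of the 4 scores for 75 members and the highest for 27, while culture 4 gave the highest for 75.

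The 2 slides that held the arrays were not evenly filled by day. Slide 1 carried 3 arrays of day 3 and 1 of day 8, slide 2 carried 1 of day 3 and 3 of day 8, and days 15 and 21 were divided equally. The median of day 8 minus another day of the same culture lay between 0.95 and 1.57 in the 4 pairs of arrays that shared a slide. It was 1.13 to 1.63 in the 8 pairs on different slides. The pairs that shared a slide were 1 with day 15 and 3 with day 21. Days 3 and 8 lay on different slides in all 4 cultures, so no rise from day 3 was read within both a culture and a slide. The rule fixes the sign of all these differences, so they are given as values alone. A slide term added to limma beside day passed an adjusted p of 0.05 for 1 of 42541 probes. Slide and day partly coincide for days 3 and 8, so this count cannot tell the 2 fully apart. With slide as a block, 996 probes were called between days 8 and 3 at the limits given below, against 1222 without it. Spots well above background made up 65.5% to 80.5% of an array, and 72.3% to 79.8% of the day 8 arrays, with none saturated.

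Members were often dim away from day 8. All 200 were well above background on the 4 day 8 arrays by the rule, whereas 158 were so on all arrays of day 3, 174 on those of day 15 and 160 on those of day 21. On all 16 arrays it was 150 of the members (75%), against 87.9% of the candidates. For 25 members day 8 was the sole day on which every array was well above background. On no array of a day were 5 members detected at day 3, 4 at day 15 and 9 at day 21, in all 12 different probes, and for these the peak is known only as a bound. The bounds ran from 1.63 to 4.34, so that day 8 was at least 4.34-fold above day 21 for TC99154 and at least 3.20-fold above day 3 for FZ8DYKY01BSPMN.s.om.10.

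Among the candidates a maximum at day 8 in every culture was uncommon. A positive score in 4 of 4 cultures occurred for 1025 of the candidates (2.53%). Scored in the same way among their own candidates, days 3, 15 and 21 had 12.1%, 0.892% and 4.27%. Held to the lowest score of the members, the maximum fell on day 3 for 1486 of 38072 probes, on day 15 for 3 of 40043 and on day 21 for 73 of 37884. That limit comes from the day 8 list, which fixes the count of day 8 at 200. With a margin of at least 2-fold in every culture the days in order held 349, 18, 0 and 3 such probes. Troughs were held to the lowest score of the members, in 4 of 4 cultures and not to the 2-fold margin. By that limit 112 of 35777 probes were lowest at day 8. It was 1690 of 37114 at day 3, 14 of 35811 at day 15 and 117 of 36588 at day 21. Inner days of a course have a neighbour on both sides and the first and last days on 1 side, so these counts describe the course and do not rank the days.

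**Figure D2:**
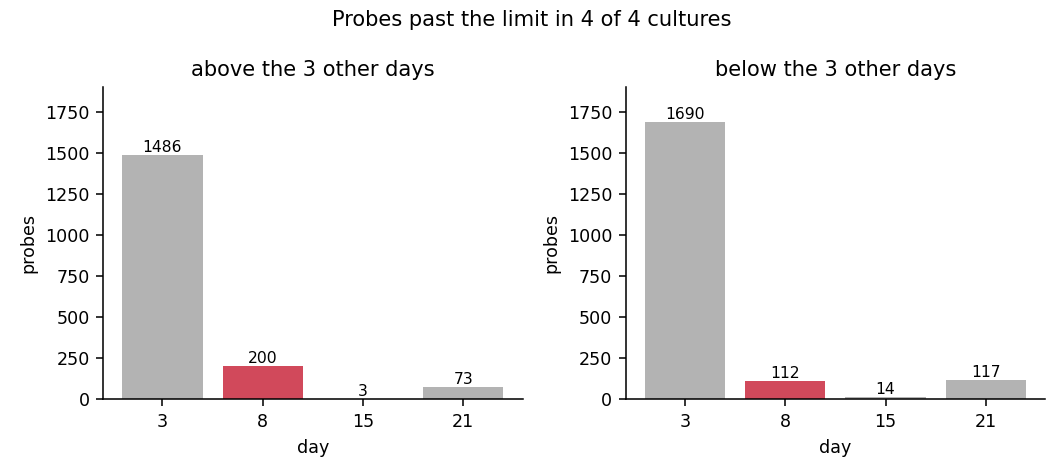
Number of probes that lay above (left) or below (right) the 3 other days by at least the lowest score of the 200 members, in 4 of 4 cultures, for each day. Bars are counts of probes, and days 3, 8, 15 and 21 hold 1486, 200, 3 and 73 peaks.

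The same measure was then read in a culture whose scores took no part in the choice. Its day 8 array still counted in the background filter, for the picked probes and for all candidates. A dim probe passes that filter more readily where its day 8 value is high, and members were dim more often than candidates away from day 8. For each culture 200 probes were picked by the rule from the other 3, and their score was taken in the culture left out. In culture 4 the score was above 0 for 157 of 200 probes (78.5%, against 23.4% of all candidates), in culture 8 for 192 (96%, against 17.8%), in culture 9 for 176 (88%, against 21.3%) and in culture 10 for 116 (58%, against 17.9%). In total 641 of 800 readings (80.1%) were positive. A positive score was thus more frequent in each culture left out than among all candidates under the same filter, and least frequent in culture 10. There the median score of the picked probes was 0.24, against 0.77, 0.80 and 0.69 in cultures 4, 8 and 9, and 88 of the 200 picked without culture 10 were among the members, against 136 to 156 for the other cultures. With candidates limited to probes well above background on all 16 arrays, 159, 193, 181 and 113 of 200 were positive in cultures 4, 8, 9 and 10. The shares of all candidates are given for the day 8 filter only. These 4 lists share probes and cultures, so they are not independent of each other.

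**Figure D3:**
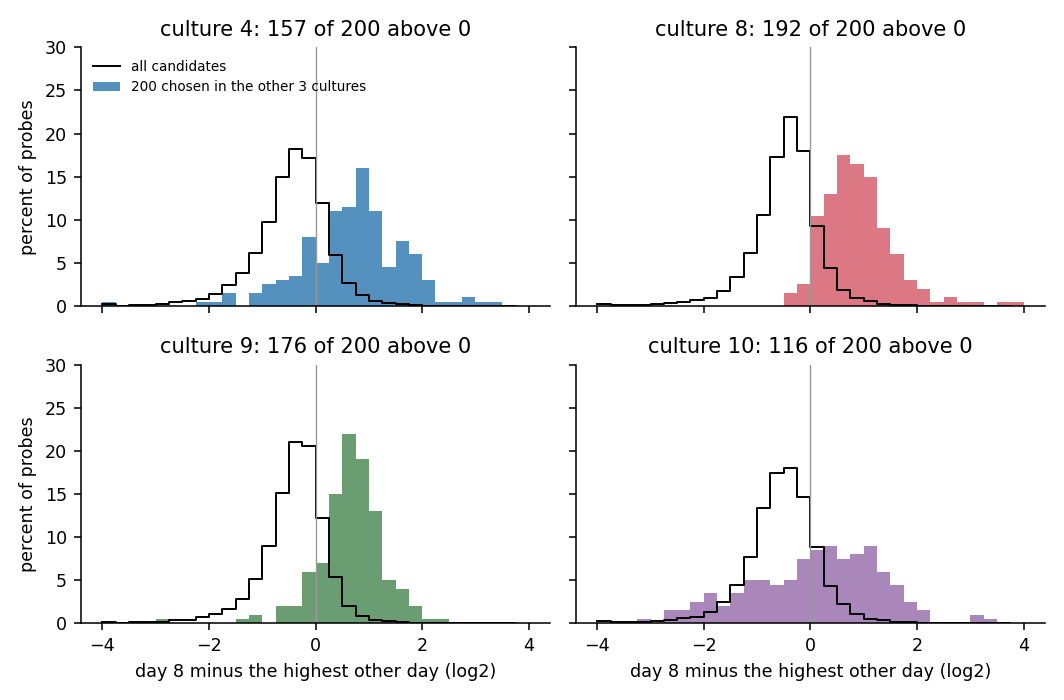
Score (day 8 minus the highest other day, log2) in each culture for the 200 probes chosen in the other 3 cultures (filled bars) and for all candidates (black line), as percent of probes. The filled distributions lie above 0 for 157, 192, 176 and 116 of 200 probes in cultures 4, 8, 9 and 10, and the one of culture 10 is the widest.

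The probe with the highest minimum score was FP323437.s.om.10. It read 6.76, 7.35, 7.73 and 7.52 at day 3, 10.39, 9.74, 10.43 and 12.52 at day 8, 7.68, 8.11, 8.75 and 9.22 at day 15 and 8.32, 7.88, 7.30 and 8.63 at day 21, in cultures 4, 8, 9 and 10. Culture 10 was the highest at day 8, and no day 8 value overlapped those of any other day. Its day 8 mean was 10.8-fold the mean of day 3, 5.03-fold that of day 15 and 6.68-fold that of day 21, and its lowest score, in culture 8, was 1.63.

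The next probe, F3GS49K02HLW96.s.om.10, was even across cultures. It read 7.73, 8.17, 7.88 and 7.37 at day 3, 10.48, 10.85, 10.74 and 10.56 at day 8, 8.87, 8.80, 9.18 and 9.01 at day 15 and 8.46, 8.61, 8.78 and 8.92 at day 21. Its cultures spread by an SD of 0.17 around the day 8 mean of 10.65, and the groups of days 3 and 15 did not overlap either. It differed between these days in limma as well, with a day 15 over day 3 ratio of 2.11 (adjusted p = 0.00054, higher in 4 of 4 cultures) and a day 21 over day 3 ratio of 1.72 (adjusted p = 0.0041, 4 of 4), both under the 3-fold limit used for calls.

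CU072096.s.om.10 had the highest score of any member in any culture, 3.85 in culture 8. It read 6.79, 5.80, 6.13 and 6.58 at day 3, 11.26, 10.42, 8.39 and 9.22 at day 8, 8.46, 6.51, 7.04 and 6.88 at day 15 and 6.79, 6.57, 5.89 and 7.00 at day 21. Cultures 9 and 10 were the lower ones at day 8, and the day 15 value of culture 4 was above the day 8 value of culture 9, so that the peak was clear within cultures while the groups of days 8 and 15 overlapped. The day 8 mean was 11.3-fold that of day 3 and 9.58-fold that of day 21.

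Several of the 10 leading probes were at the edge of detection outside day 8. FZ8DYKY01BSPMN.s.om.10 was well above background on 0, 4, 1 and 1 arrays at days 3, 8, 15 and 21, with day 8 values of 7.21, 5.49, 4.70 and 5.69. F0DLFKL01AISOK.s.om.10 was so on 1, 4, 1 and 0 arrays, with day 8 values of 6.01, 4.55, 5.59 and 7.42, and its day 8 signal was at least 3.30-fold above day 21. F3GS49K01B0H6D.s.om.10 was so on 3, 4, 2 and 1 arrays, with day 8 values of 8.06, 8.67, 6.43 and 8.43. For these probes most later arrays were not well above background, so the day 8 levels are measured and the levels after it mostly are not.

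TC117272 and FYV3OTN01A05MP.s.om.10 were detected on most arrays of every day. TC117272 read 4.84, 5.11, 5.06 and 5.64 at day 3, 7.18, 7.23, 6.90 and 7.19 at day 8, 5.94, 5.13, 5.07 and 5.74 at day 15 and 5.09, 4.43, 4.94 and 5.02 at day 21, with all day 8 values above all others. FYV3OTN01A05MP.s.om.10 read 5.37, 4.70, 4.46 and 4.25 at day 3, 7.04, 8.02, 6.50 and 5.40 at day 8, 5.06, 5.38, 4.77 and 4.20 at day 15 and 5.51, 5.04, 4.99 and 2.70 at day 21. In the second probe culture 10 was the lowest on all 4 days, and the day 8 value of culture 10 lay below the day 21 value of culture 4.

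BX913548.s.om.10 differed widely in level between cultures. It read 8.49, 5.91, 6.94 and 7.91 at day 3, 12.16, 9.61, 10.26 and 10.05 at day 8, 9.27, 7.90, 7.26 and 8.87 at day 15 and 9.96, 7.04, 7.88 and 7.96 at day 21. Culture 4 was the highest on all 4 days, and its day 21 value exceeded the day 8 value of culture 8, yet the score was between 1.18 and 2.38 in each culture.

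**Figure D4:**
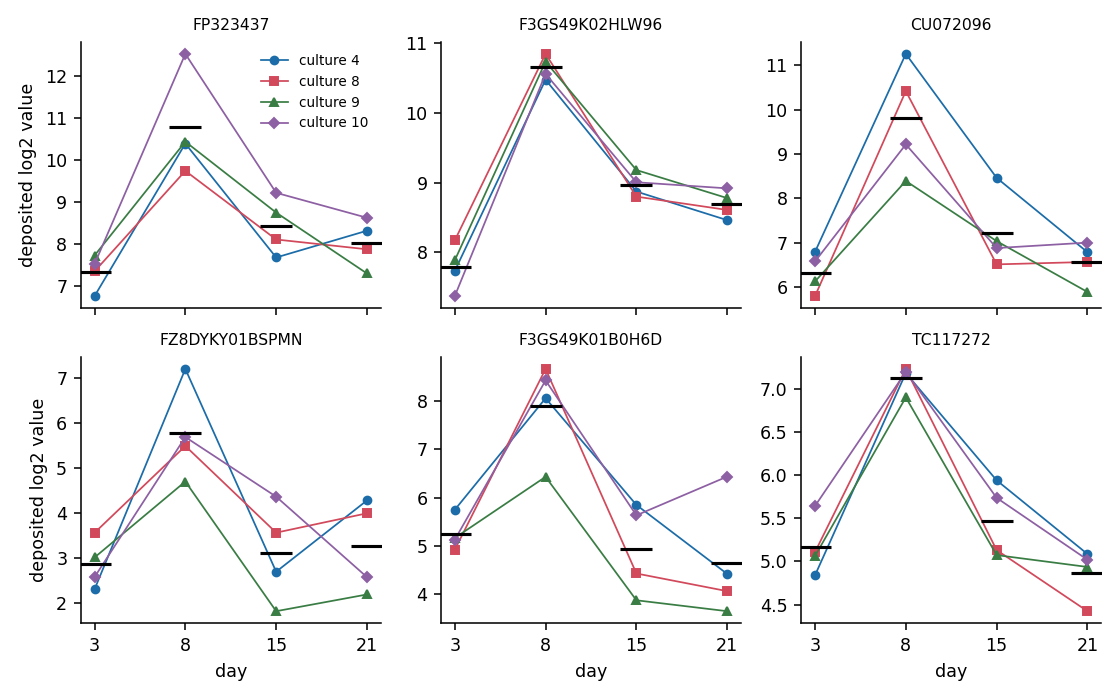
Deposited log2 values of the 6 probes with the highest minimum score, by day (x axis) and culture (coloured lines), with the mean of the 4 cultures as a black bar. Each line has its highest point at day 8, as the rule requires, and the lines of CU072096 range from 8.39 to 11.26 at that day. The y axes differ between panels.

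The 5 members with the brightest day 8 signal were TC117373, BX876176.s.om.10, TC111367, TC98171 and TC112372, all well above background on 16 arrays. TC98171 was close between cultures, with 12.07, 11.89, 11.99 and 11.92 at day 3, 14.22, 13.46, 13.57 and 14.18 at day 8, 12.25, 12.39, 12.52 and 12.62 at day 15 and 12.06, 12.10, 12.25 and 12.62 at day 21. Its day 8 values stood clear of all others. TC117373 read 13.31, 12.20, 13.62 and 13.68 at day 3, 14.86, 13.95, 15.15 and 15.69 at day 8, 13.30, 12.73, 14.23 and 14.61 at day 15 and 12.48, 12.53, 14.41 and 13.77 at day 21, so the day 8 value of culture 8 overlapped the values of days 15 and 21. For TC111367 the means of days 3, 8, 15 and 21 were 12.53 ± 0.41, 13.93 ± 0.67, 12.17 ± 0.95 and 11.89 ± 0.66 (SD, n = 4). TC112372, the member ranked 192, had a modest peak with day 8 values of 13.55, 13.75, 13.50 and 13.56. Its ratios to day 3 were 0.567 at day 15 (limma adjusted p = 0.012, lower in 4 of 4 cultures) and 0.659 at day 21 (adjusted p = 0.047, lower in 4 of 4), and neither met the limits used for calls.

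Other members that were well above background on 16 arrays and stood high in the list were FYV3OTN01AOKHM.s.om.10, F3GS49K01CGGRZ.s.om.10, TC116675 and TC100305, with minimum scores of 1.07, 1.03, 1.02 and 1.01. TC100305 averaged 9.02 ± 0.28, 10.99 ± 0.46, 9.53 ± 0.15 and 9.06 ± 0.05 at days 3, 8, 15 and 21 (SD, n = 4). FYV3OTN01AOKHM.s.om.10 averaged 9.67 ± 0.35, 11.74 ± 0.92, 10.14 ± 0.45 and 10.15 ± 0.55. These returned to within a narrow range of the day 3 level. TC116675 went below it, averaging 6.66 ± 0.53, 7.88 ± 0.62, 6.26 ± 0.56 and 5.66 ± 0.48, with a day 21 over day 3 ratio of 0.461 in limma (adjusted p = 0.020, lower in 4 of 4 cultures). F3GS49K01CGGRZ.s.om.10 went the other way at the end, being higher at day 21 than at day 15 in 4 of 4 cultures, with means of 7.32 ± 1.03 at day 21 and 6.54 ± 0.78 at day 15, a ratio of 1.69 that did not pass (limma adjusted p = 1.0).

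At the limit of the list, TC95540 ranked 200 with a minimum score of 0.40, a ratio of 1.32, and TC111908, the first probe outside it, had the same rounded value. The members ranked 198 and 199 also scored 0.40, and the probes ranked 202 and 203 scored 0.39. The list therefore ends in a continuum of candidates and not at a gap.

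Days 3, 15 and 21 were not set against each other by the rule, so limma was run on the differences among them. The rule did hold all of them below day 8 in each culture, a limit that the other probes did not have. Shares of members beside shares of all probes are therefore a description. The 4 day 8 arrays stayed in the limma fit over 42541 probes to estimate the spread. Calls needed both an adjusted p under 0.02 and more than a 3-fold ratio. The day 15 over day 3 difference ran from -1.06 to 2.92 on the log2 scale with a median of 0.21 (all probes tested -0.02), and 174 members (87%, against 80.8% of all probes tested) lay within 2-fold. For day 21 over day 3 it ran from -1.81 to 2.99 with a median of -0.12 (all probes tested -0.05), and 172 members (86%, against 78.5%) lay within 2-fold. Of the 150 members well above background on all 16 arrays, 88% lay within 2-fold of day 3 at day 15 and 89.3% at day 21, and of the 25 members that only day 8 carried past the filter, whose other values lie near background, 92% and 84% did. On the deposited scale all day 21 values stood 0.12 higher relative to day 3 than under scaling to the 75th percentile, and the median of members was then 0.00, so the side of day 3 on which the members ended is not settled.

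At day 15, 8 members were called higher than at day 3 (4%, against a background of 3.42% of probes tested) and 0 were called lower (background 3.49%). By limma's adjusted p alone, without the 3-fold limit, 16 members were higher (background 10.4%) and 2 lower (background 11%), and 43 (21.5%, against 40.4% of all probes) had an unadjusted p below 0.05. At day 21, 4 members were called higher than at day 3 (2%, background 3.71%) and 0 lower (background 4.2%), while by limma's adjusted p alone 11 were higher (background 11.9%) and 13 lower (background 13.6%), and 52 (26%, against 43.9%), of which 35 were lower, had an unadjusted p below 0.05. The share of members called higher was near the background at day 15 and below it at day 21. These shares count the 25 members that only day 8 carried past the filter. When the fit kept just the probes that each of the 16 arrays detected, 7 of 150 members were called higher at day 15, against 1026 of 35803 probes. At day 21 it was 3 of 150 members, against 1131 probes. In that fit 0 members were called lower at either day. With culture as a block, 10 and 5 members were called higher at days 15 and 21, against 1662 and 1762 of all 42541 probes. In that fit 1 member, FYV3OTN01CQIHG.s.om.10, was called lower at day 21 (ratio 0.285, limma adjusted p = 0.015), against 2083 of all probes. By adjusted p alone the block gave 26 rises (background 15.1%) and 4 falls (background 15.8%) among the 200 members for day 15. For day 21 it gave 15 rises (background 16.3%) and 28 falls (background 19.0%). Leaving out culture 4 or culture 10 also gave 1 member called lower at day 21, a different one each time (GAY7CUQ01DEGW4.s.om.10 and FYV3OTN01ASL17.s.om.10). Of all probes tested, 1732 of 43097 and 2144 of 44266 were called lower in these 2 fits. The comparisons share the day 3 arrays. The count of 8 became 4 without culture 9 and 3 under normexp background correction, and the count of 4 became 2 without culture 8 and 2 under normexp. Calls among all probes fell too. At day 15, 1453 probes were called higher in the main fit, 984 without culture 9 and 798 under normexp. At day 21 it was 1580 in the main fit, 1193 without culture 8 and 907 under normexp.

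The 8 members called at day 15 were not alike at day 21, where 4 of them were called over day 3 again. BX876176.s.om.10 read 10.45, 10.62, 10.62 and 11.03 at day 3, 14.33, 14.20, 14.06 and 13.16 at day 8, 12.16, 12.98, 13.45 and 12.47 at day 15 and 12.39, 13.30, 12.87 and 12.34 at day 21. All later values lay above all day 3 values, by a ratio of 3.97 at day 15 (log2 1.99, SE 0.30, limma adjusted p = 0.00025) and of 3.79 at day 21 (log2 1.92, SE 0.30, adjusted p = 0.00025). Both calls were kept under all 11 alternatives run.

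TC100508 followed the same course, with 6.06, 5.36, 5.44 and 5.73 at day 3, 9.23, 8.92, 8.88 and 7.79 at day 8, 7.12, 7.76, 8.13 and 7.07 at day 15 and 7.10, 8.04, 7.51 and 7.16 at day 21. Culture 10 was the lowest at day 8 in both probes and culture 4 the highest. After the day means were taken out the 2 probes correlated across the 16 arrays with r = 0.87, a description over arrays that share the 4 cultures. The ratios of TC100508 over day 3 were 3.42 at day 15 (limma adjusted p = 0.00097) and 3.21 at day 21 (adjusted p = 0.0012), higher in 4 of 4 cultures each. The first call was lost without culture 9 (range of adjusted p over alternatives 0.00055 to 0.029) and the second without culture 8 (0.00065 to 0.029), and both under normexp.

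GBPNQUD01DQZIR.s.om.10 was the member with the largest ratio of day 8 to day 3 among those named that were detected on all arrays, at 18.6. It read 6.51, 6.53, 7.44 and 8.04 at day 3, 10.67, 11.07, 11.51 and 12.11 at day 8, 9.11, 9.33, 10.31 and 10.15 at day 15 and 8.71, 8.55, 8.30 and 9.43 at day 21. Its day 15 values were 5.66-fold those of day 3 (log2 2.50, SE 0.39, limma adjusted p = 0.00032), a call kept under all 11 alternatives, and its day 21 values, below those of day 15 in 4 of 4 cultures, were 2.83-fold those of day 3 (adjusted p = 0.0081), under the 3-fold limit. GBPNQUD01EZN7V.s.om.10 ran closely with it (r = 0.92 after the day means were taken out), and its log2 difference between day 15 and day 3 was 1.72 (SE 0.45, adjusted p = 0.0097). Its call was lost without culture 4, 8 or 9 and under normexp.

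TC117923 was close to background at day 3, where 1 of 4 arrays was well above it. It read 2.30, 1.47, 3.58 and 2.55 at day 3, 7.03, 7.80, 6.36 and 5.95 at day 8, 5.24, 6.34, 5.34 and 5.02 at day 15 and 5.49, 6.42, 5.66 and 4.76 at day 21. Its log2 difference over day 3 was 2.92 at day 15 (limma adjusted p = 0.00054) and 2.99 at day 21 (adjusted p = 0.00036). Under normexp the differences were 0.68 and 0.93 and neither was called, so their size depends on how the background is treated.

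The remaining calls at day 15 were CX027706.s.om.10, TC102742 and TC95540. CX027706.s.om.10 averaged 7.75 ± 0.39, 10.50 ± 0.54, 9.72 ± 0.46 and 9.05 ± 0.48 at days 3, 8, 15 and 21 (SD, n = 4), with a day 15 ratio of 3.67 (limma adjusted p = 0.00035) that missed the call under normexp. TC102742 averaged 7.90 ± 0.32, 10.35 ± 0.16, 9.59 ± 0.30 and 9.19 ± 0.46, with a ratio of 3.03 (adjusted p = 0.00014) that lay just past the limit and was lost without culture 9 or 10 and under normexp. TC95540, the last member of the list, read 8.90, 9.32, 8.53 and 8.41 at day 3, 11.22, 11.80, 11.26 and 13.02 at day 8, 10.23, 11.40, 10.34 and 12.18 at day 15 and 9.87, 10.96, 10.00 and 11.95 at day 21. Its ratios over day 3 were 4.45 at day 15 (adjusted p = 0.0066) and 3.45 at day 21 (adjusted p = 0.017). The first was lost without culture 8 or 9, and the second without any 1 of the 4 cultures, with slide as a block, with no filter and under quantile normalization.

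**Figure D5:**
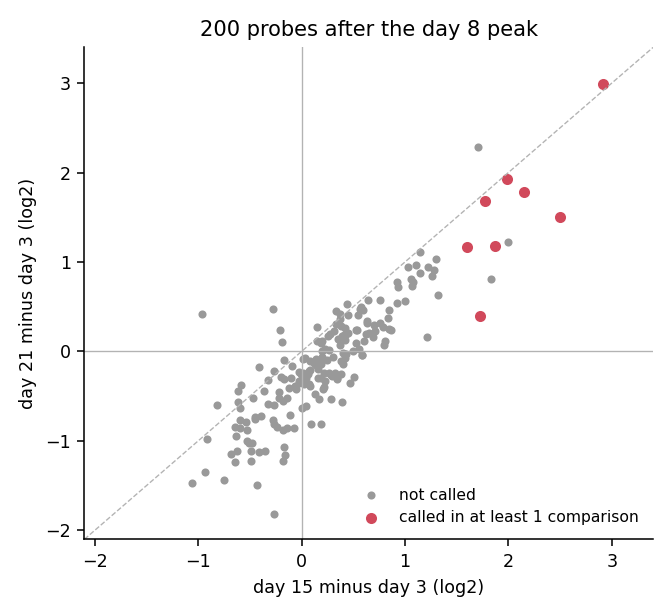
Difference between day 15 and day 3 (x axis) and between day 21 and day 3 (y axis) for the 200 probes, log2 estimates from limma, with the 8 probes called in at least 1 of these comparisons in red and a dashed line where both are equal. The axes share the day 3 arrays. Most points lie below the dashed line, with a median difference between day 21 and day 15 of -0.33.

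The rule placed days 3 and 15 below day 8, so the part of the day 8 rise still present later is given as a description. It was taken from deposited values, where day 15 stood 0.09 and day 21 0.12 higher relative to day 3 than in the main limma fit. The members' median day 15 over day 3 difference was 0.30 on the deposited scale and 0.21 in the main fit, so the shares depend on the scaling. For each member the difference of a later day over day 3 was divided by that of day 8 over day 3, and the median over members at day 15 was 11.8%, 16.3%, 25.2% and 25.4% in cultures 4, 8, 9 and 10 (mean 19.7 ± 6.78%, SD, n = 4), and at day 21 it was 8.61%, -15.3%, -9.00% and 5.91% (mean -2.46 ± 11.6%). In each culture the median was lower at day 21 than at day 15, and the members spread widely around it, with a middle 50% of -20.0% to 41.5% in culture 4 at day 15. Among the days other than 8, day 15 had the highest mean for 133 members (66.5%, against 26.1% of candidates), day 3 for 55 (27.5%, against 39.9%) and day 21 for 12 (6%, against 33.9%). Day 15 was rarely the lowest of them, in 12 members (6%, against 21.5%).

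Between day 21 and day 15 the members leaned downward without any single call, which is a description since members are not replicates of a culture. In deposited values, day 21 was lower than day 15 in 4 of 4 cultures for 63 members (31.5%, against 9.8% of candidates). It was higher in 4 of 4 for 3 (1.5%, against 9.74%). The median difference was -0.04, -0.34, -0.41 and -0.37 in cultures 4, 8, 9 and 10, so culture 4 showed little of it. In limma 0 of 200 members and 0 of 42541 probes were called (background 0%), and 29 members had an unadjusted p below 0.05, of which 28 were lower at day 21, against 1474 of all probes (3.46%). With culture as a block 0 were called as well, and 55 members and 3124 probes had an unadjusted p below 0.05. The members' median estimate was -0.33, against -0.03 over all probes tested. Among the 150 members well above background on all 16 arrays the median was -0.30. Of these, 25 had an unadjusted limma p below 0.05, all lower at day 21, against 3.2% of the probes tested with that filter.

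Also in deposited values, day 15 was higher than day 3 in 4 of 4 cultures for 73 members (36.5%, against 28.1% of candidates) and lower for 21 (10.5%, against 22.4%). For day 21 against day 3 the counts were 33 higher (16.5%, against 28.2%) and 34 lower (17%, against 21.9%).

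In the contrasts the rule used, calls among members would follow from the choice, so calls are given for all probes only. Of the probes tested, 1.87% were called higher at day 8 than at day 3 and 0.308% lower at day 15 than at day 8. Over the 4 days limma's F-test called 8.84%. Between days 8 and 15, in either direction, 279 probes were called, and 541 with culture as a block. Without culture 8 it was 17 of 42929 probes tested, and without culture 9 it was 12 of 43188.

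The members did not move as 1 tight block beyond the shared peak. After the day means were taken out, the median correlation between 2 members across the 16 arrays was 0.06, and 34 of 19900 pairs (0.171%) had r above 0.9, against 0.0650% of candidate pairs. The closest pair was GBPNQUD02HI26A.s.om.10 with F3GS49K01D1X19.s.om.10 (r = 0.99). Members lay across the array, with 22.5%, 29%, 23.5% and 25% in 4 equal bands of its rows, against 24.7% to 25.2% of candidates.

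Among the 224 designed probes, which the rule left out, 8 had a positive score in 4 of 4 cultures and 2 passed the limit of the list. The probe for Wnt4a, a secreted ligand of the Wnt family, had scores of 2.13, 2.17, 1.98 and 1.31, averaged 4.56 ± 0.34, 7.62 ± 0.86, 5.72 ± 0.85 and 4.70 ± 0.80 at days 3, 8, 15 and 21 (SD, n = 4), and would have stood behind 4 members. The other was FJ769224.s.om.10, with a minimum score of 0.43.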

How the data were processed

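RNA of 4 cultures at 4 days was measured on 16 one-colour Agilent arrays. The authors extracted spot intensities with Feature Extraction 10.7.3.1, per the labels, and deposited them not yet scaled across arrays. A table deposited beside them holds GeneSpring log2 values, in which all arrays have an equal median. The members and their scores come from these deposited log2 values. Of 60195 non-control probes, 59145 had a value on all arrays after spots marked as outliers (6 to 272 per array) were left out.

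Tests used limma 3.58.1 in R 4.3.3 on log2 processed signal minus the 75th percentile of each array (518 to 881 units), with 1 mean per day and no block, over 42541 probes that every array of some day showed well above background, with Benjamini-Hochberg adjustment. The limits of 0.02 and 3-fold are those the methods set for an ANOVA over days with no stated adjustment, and here they were applied to adjusted p and pairs of days. A bound sets the day 8 mean against the higher of the dim probe's signal and the lowest detected signal on each array. Shares and figures were made with Python 3.11.15, numpy 2.4.6, pandas 2.3.3 and matplotlib 3.10.9. On simulated data with 200 changed probes among 42541, 77.5% of 4-fold and 89.5% of 8-fold changes were called for day 15 over day 3 (1 and 0 false calls), and 77% and 94.5% for day 21 over day 15 (1 and 4 false calls). The simulation drew each array independently and left all other probes unchanged, so its rates need not hold for the real arrays. The number of arrays limits the precision.

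A culture is 1 pool of cells, so culture numbers pair the samples. After day means were removed, arrays of 1 culture correlated at -0.14 to 0.70 over 24 pairs of arrays, 23 of them above 0. Alternatives were culture or slide as a block, the deposited values, quantile normalization, normexp (on the median signal, offset 50), other filters, other scores, the methods' ANOVA and the omission of each culture. Probes named are the 10 with the highest minimum score, the 10 highest detected on all arrays, the 5 brightest at day 8, those at the limit of the list, and the largest called changes among days 3, 15 and 21, with all 8 called members given. TC99154, GBPNQUD02HI26A.s.om.10, F3GS49K01D1X19.s.om.10, the 3 members called lower under an alternative and the designed probes were named after their values were seen. The members and lists were chosen with earlier results of these data known.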

Additional observations from a re-analysis of the deposited data

Results flagged for a closer look

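In 92 groups of 4 cultures, 1 for each of 23 named members and each day, 3 held a culture whose gap to the others was large for the range of the group by Dixon's criterion, which chance alone meets in about 1 of 20 groups. At day 8, culture 9 gave TC117272 a log2 value of 6.90, and the remaining cultures lay between 7.18 and 7.23. At day 15, culture 10 gave F0DLFKL01AISOK.s.om.10 a value of 5.26 while the rest spanned 3.33 to 3.50, and the probe was well above background on 1 of the 4 arrays of that day. For CX027706.s.om.10 it was culture 4 at day 3, with 7.16 beside 7.89 to 7.98. The cause of these gaps was not tested.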

How the results depend on the processing

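Of the main values recomputed under an alternative, 111 stayed within 1.5 times for counts or 1 SD for the median score and 32 moved, and for the called members 23 recomputed values missed the threshold, with no direction reversed. Those that stayed include the counts of probes and members called for day 21 over day 15, which were 0 in the main fit and under each alternative. Counts of members in the day 8 contrasts are also among the main values. They follow from the choice, so they are not given here. Under normexp the calls among all probes were 1566 in place of 2936 for day 15 over day 3, 1700 in place of 3367 for day 21 over day 3, 634 in place of 1222 for day 8 over day 3 and 151 in place of 279 for day 15 over day 8. Among members they were 3 in place of 8, 2 in place of 4, 35 in place of 69 and 10 in place of 22. Normexp also kept 123 of the 200 members and lowered their median score to 0.70, against 0.92. With only probes well above background on all 16 arrays, day 8 over day 3 gave 808 probes and 45 members and day 15 over day 8 gave 185 probes. With no filter, 11 members were called for day 15 over day 8. Ranking by the mean score kept 121 members. Culture as a replicate block gave 541 probes and 41 members for day 15 over day 8 and moved no other count of probes or members called at both limits by over 1.5 times, apart from 1 member called lower for day 21 over day 3 in place of 0. Leaving out 1 culture at a time gave 1910 to 3319 probes and 4 to 8 members for day 15 over day 3, 2 to 4 members for day 21 over day 3, 555 to 1226 probes and 36 to 55 members for day 8 over day 3, 12 to 404 probes and 0 to 13 members for day 15 over day 8, and kept 88 to 156 of the members. The cause of these shifts was not tested. Counting spots marked as outliers, an alternative chosen after seeing the data, kept 195 of the members. Ratios of members near background are limited by signal, since 12 of them have only a bound on some day.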
